A study of Mus musculus with 4 samples.

Results

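The islet hormone genes are the 8 genes Ins1, Ins2, Gcg, Sst, Ppy, Pyy, Ghrl and Iapp, chosen by name for what they encode. No value measured here was part of that rule, but earlier results of these data were known when the genes were chosen. On the arrays 10 of 41174 different probes carried 7 of these 8 symbols, and each of the 7 genes had a tested probe, among 15524 genes tested. No probe was matched to Iapp, which encodes islet amyloid polypeptide, and it was not analysed here. The 7 genes were measured in whole pancreas of mouse embryos of strain C57BL/6JNarl at stage E18.5, in 4 extracts labelled knockout for Cyp11a1 (KO) and 4 labelled wild type (WT). Each of 4 two-colour Agilent arrays held 1 KO extract in the red dye and 1 WT extract in the green dye, made from 20 µg of total RNA. The dyes were never swapped, so a dye effect on a probe and an effect of genotype cannot be told apart below. The labels call the arrays biological replicates, and do not say how Cyp11a1 was inactivated, whether an extract pooled embryos, or of which sex they were.

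Islets hold several endocrine cell types, each known for its hormone. Beta cells make insulin, which mice encode in both Ins1 and Ins2, and they also make amyloid polypeptide. Alpha cells make glucagon from the Gcg precursor, delta cells somatostatin, PP cells pancreatic polypeptide, and a ghrelin cell type is prominent in the islets of embryos. Insulin and glucagon set blood glucose in opposite directions, and somatostatin restrains the release of both. Cyp11a1 encodes the mitochondrial enzyme that turns cholesterol into pregnenolone, from which glucocorticoids and the other steroid hormones are made. Somatostatin, peptide YY, ghrelin and the glucagon precursor are also made in stomach or intestine.

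None of the 7 hormone genes passed the test between KO and WT pancreas. The test was limma on the log2 ratio of KO over WT, with p-values adjusted by the Benjamini-Hochberg method over all tested genes and a threshold of 0.05, and all ratios below are such log2 ratios. In the same fit 14.6% of all tested genes passed, 9.45% higher and 5.11% lower in KO. At an unadjusted p under 0.05, 1 of the 7 passed, the somatostatin gene, against 4777 of the 15524 genes. The median ratio was -0.025 over the 7 genes and 0.013 over all tested genes. All 7 lay within 0.2 of 0, as did 84.6% of all tested genes. The median SD between arrays was 0.13 for the 7 genes and 0.10 for all tested genes.

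That count rested on the way the dyes were balanced within each array. The main values used loess, which sets the ratio to 0 across the brightness range. With each array centred on its median in place of loess, 6 of the 7 hormone genes were higher in KO past the threshold, and 76.8% of all tested genes passed, 61.0% higher and 15.8% lower. The median of all tested genes was then 0.26, against 0.013 with loess. The ratios so obtained were 0.62 for Ins1, 0.57 for Ins2, 0.61 for Gcg, 0.51 for Sst, 0.22 for Ppy, 0.35 for Pyy and 0.31 for Ghrl, and Ppy (adjusted p = 0.083) was the 1 that did not pass. Setting the median of the tested genes to 0 on each centred array, an alternative chosen after seeing the data, left 4 of the 7 higher past the threshold (Ins1 0.37, Ins2 0.32, Gcg 0.36 and Sst 0.26), where 58.4% of all tested genes passed, 27.4% higher and 31.0% lower. Directions of the hormone genes are therefore given only as measured with loess, and they depend on that choice.

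**Figure D1:**
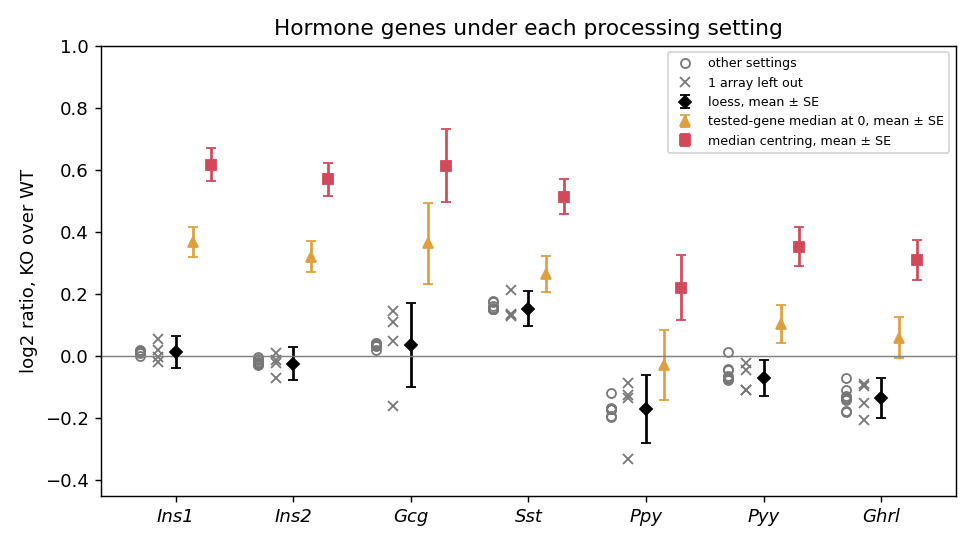
The log2 ratio of KO over WT (y axis) of each hormone gene (x axis) under each processing setting, with diamonds, triangles and squares for loess, centring with the tested-gene median at 0, and median centring (mean ± SE, n = 4 arrays), circles for other settings and crosses for 1 array left out. Under median centring all 7 genes lie above 0, and the diamonds of the main loess fit lie between -0.17 and 0.15.

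Expression of Ins1, encoding one of the 2 mouse preproinsulins, was read by a single probe (A_51_P312755). Its normalised level was 15.74, 15.53, 15.90 and 15.92 log2 units in the KO extracts of arrays 1 to 4, against 15.85, 15.42, 15.91 and 15.85 in the WT extracts. The extracts of array 2 were the lowest of both genotypes, and the groups overlapped. The ratios were -0.11, 0.11, -0.011 and 0.062 on arrays 1 to 4. Their mean was 0.013 ± 0.052 (SE, n = 4 arrays, adjusted p = 0.897), with a 95% interval of -0.11 to 0.13. The small mean turned to -0.020 without array 2 and to -0.0039 without array 4.

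For Ins2, the other preproinsulin gene, a pair of probes gave values. The representative probe (A_52_P407060) read 15.46, 15.58, 15.39 and 15.68 in KO and 15.59, 15.61, 15.45 and 15.57 in WT. KO and WT overlapped, and KO was the higher extract on array 4 alone. The mean ratio was -0.025 ± 0.053 (SE, n = 4 arrays, adjusted p = 0.791), with a 95% interval of -0.15 to 0.098, and it was 0.0090 without array 1. The other probe (A_51_P389597), printed 10 times on each array, gave -0.11, -0.039, -0.092 and 0.10 on arrays 1 to 4, so that both probes were negative on arrays 1 to 3 and positive on array 4. Ins1 and Ins2 are related copies, probe sequences were not used here, and signal shared between their probes was not tested. The split between the copies is therefore uncertain. In the loess fit the 95% intervals of both lay within a fold of 1.11. With median centring the log2 ratios were 0.62 for Ins1 and 0.57 for Ins2, beyond that bound.

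Gcg encodes proglucagon, the precursor of glucagon, and had the largest spread of the 7 genes. The level of its probe (A_51_P406253) was 14.91, 15.25, 15.29 and 14.92 in KO, against 15.10, 14.62, 15.58 and 14.92 in WT. Both extracts of array 3 were the highest of their genotype, the WT extract of array 2 was the lowest of all, and the groups overlapped. The ratio was 0.63 on array 2, against -0.19, -0.29 and -0.0052 on arrays 1, 3 and 4. The SD between arrays of 0.41 was larger than that of 98.5% of the tested genes. The mean of 0.036 ± 0.14 (SE, n = 4 arrays, adjusted p = 0.888) had a 95% interval of -0.28 to 0.35, so that a change of up to 1.28-fold lay inside it. Without array 2 the mean ratio was -0.16 (adjusted p = 0.163), the opposite direction.

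Replicate spots give the reading error within an array. The Gcg probe was printed 10 times per array, and 39 of its 40 spots were used. Its spots on 1 array differed by a pooled SD of 0.058, while the arrays differed by an SD of 0.41, 7.10 times as much. On array 2 every used Gcg spot lay between 0.58 and 0.73, and on array 3 between -0.34 and -0.20. For the Ins2 probe printed 10 times the SD was 0.051 between spots and 0.097 between arrays, and for Sst it was 0.044 between spots and 0.12 between arrays. Spots share an extract while arrays hold separate extracts, so the arrays, not the spots, are the replicates.

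**Figure D2:**
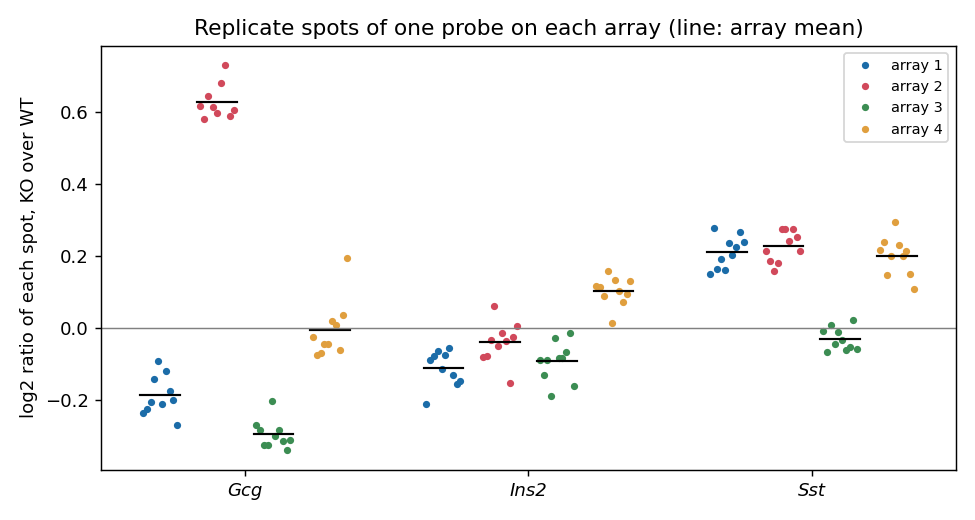
The log2 ratio of KO over WT (y axis) of every used spot of the Gcg, Ins2 and Sst probes that are printed 10 times per array (x axis), with a line at each array's mean. The Gcg spots of array 2 lie between 0.58 and 0.73, apart from those of the other arrays.

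Sst encodes the somatostatin precursor and had the smallest p-value of the 7 genes. Its probe (A_51_P262489) read 10.22, 10.49, 10.34 and 10.24 in KO, against 10.00, 10.26, 10.37 and 10.03 in WT. KO was the higher extract on arrays 1, 2 and 4 and slightly the lower on array 3, and the groups overlapped. The ratios were 0.21, 0.23, -0.030 and 0.20 on arrays 1 to 4. Their mean was 0.15 ± 0.057 (SE, n = 4 arrays), a fold of 1.11, with a 95% interval of 0.021 to 0.29, an unadjusted p of 0.0281 and an adjusted p of 0.115 in limma. A smaller p-value was found for 24.5% of all tested genes. With 1 array left out at a time the ratio was 0.13 to 0.21 and the adjusted p 0.0671 to 0.294.

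Ppy encodes pancreatic polypeptide, the hormone of PP cells. The level of its probe (A_52_P460791) was 10.38, 10.68, 10.36 and 10.98 in KO, against 10.79, 10.96, 10.66 and 10.66 in WT. The KO extract of array 4 was the highest of both groups, and on the other 3 arrays KO was the lower extract. The ratios were -0.42, -0.28, -0.30 and 0.31, and their SD of 0.33 was larger than that of 97.5% of the tested genes. The mean was -0.17 ± 0.11 (SE, n = 4 arrays, adjusted p = 0.336), with a 95% interval of -0.43 to 0.086. Array 4 decided the call: without it the ratio was -0.33 and passed the test (adjusted p = 0.0277), where 2.65% of all tested genes passed in that direction.

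Pyy encodes peptide YY, a relative of pancreatic polypeptide, and is the direct neighbour of Ppy on chromosome 11, with 0 genes annotated between them. Its tested probe (A_52_P366462) read 10.99, 11.39, 11.39 and 11.17 in KO, against 11.20, 11.35, 11.55 and 11.13 in WT. KO was the lower extract on arrays 1 and 3 and the higher on arrays 2 and 4. The mean ratio was -0.071 ± 0.059 (SE, n = 4 arrays, adjusted p = 0.452), with a 95% interval of -0.21 to 0.065. A second probe (A_51_P241733) was marked as non-uniform on arrays 1 and 2 and was not tested. On arrays 3 and 4 its ratios were -0.0026 and -0.013. With non-uniform spots kept it became the representative probe, with a ratio of 0.015 (adjusted p = 0.850).

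Ghrl encodes preproghrelin. The representative probe (A_51_P464000) read 11.52, 11.61, 11.65 and 11.97 in KO, against 11.61, 11.87, 11.92 and 11.90 in WT. KO was the lower extract on arrays 1 to 3 and the higher on array 4. The mean ratio was -0.14 ± 0.066 (SE, n = 4 arrays, unadjusted p = 0.074, adjusted p = 0.207), with a 95% interval of -0.29 to 0.017. The other Ghrl probe (A_52_P675556) gave -0.076, 0.027, -0.22 and 0.24 on arrays 1 to 4, with a mean of -0.0064 (adjusted p = 0.967 with every probe tested on its own). Both probes were negative on arrays 1 and 3 and positive on array 4, and they differed in sign on array 2.

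**Figure D3:**
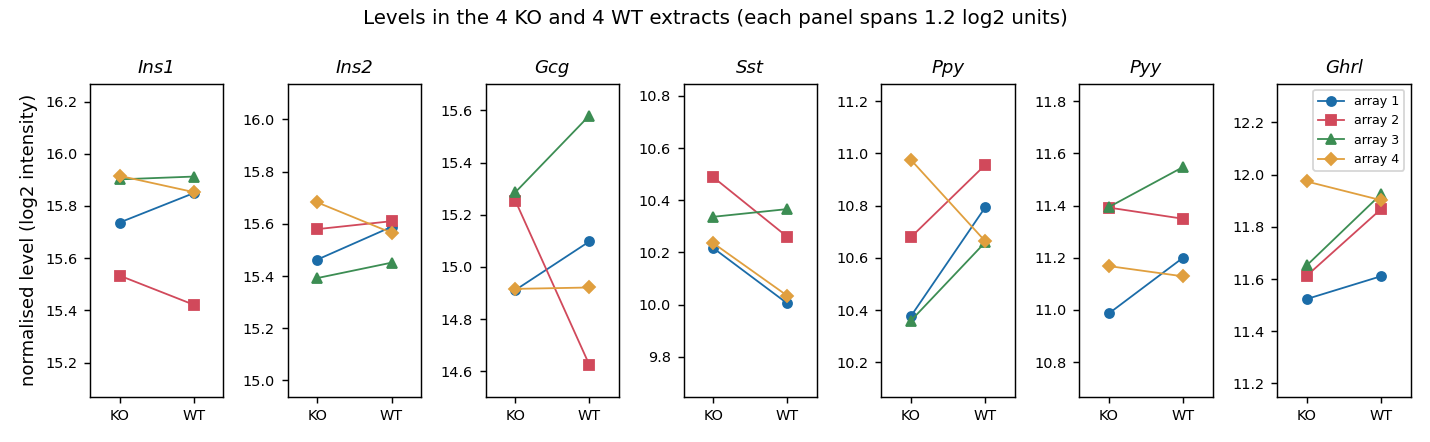
Normalised level (y axis, log2 intensity, each panel spanning the same range) of the 7 hormone genes in the KO and WT extracts (x axis), with a line joining the 2 extracts of an array. In every panel the KO and WT levels overlap.

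KO and WT levels overlapped for each of the 7 genes. Of all tested genes, 6.07% were higher in KO with no overlap and 2.28% lower, so a count of 0 among 7 genes is near the background. Levels are not compared between genes, since probes differ in how strongly they bind. In whole pancreas, fewer cells of a type and less RNA per cell cannot be told apart. Per the file headers, the brightest spots were read at a low detector gain and scaled up by Feature Extraction. This held for 8 of 8 readings of Ins1, for 8 of 8 and 74 of 80 readings of the representative and the other Ins2 probe, and for 8 of 8 readings of the untested Pyy probe. It also held for 64 of 80 readings of Gcg, of which 40 were in KO and 24 in WT, and for 0 readings of Sst, Ppy, Ghrl and the tested Pyy probe. No spot was saturated.

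The hormone genes lay largely on 1 side of 0 on arrays 1, 3 and 4. On array 1, 1 of the 7 was higher in KO, on array 2, 4 were, on array 3, 0 were, and on array 4, 6 were. Of all tested genes 54.9%, 53.4%, 55.1% and 56.3% were higher in KO on arrays 1 to 4. Of 13 tested genes for hormone processing and secretory granules, 1, 9, 3 and 4 were higher on arrays 1 to 4. They leaned as the hormones did on arrays 1 and 3 but not on array 4, so such a lean was not particular to the hormones. Xist, the transcript of the inactive X chromosome in females, had ratios of -3.91, -0.28, -4.22 and 3.46 on the same arrays, far from 0 on arrays 1, 3 and 4. The sex-linked genes Uty, Eif2s3y, Ddx3y and Kdm5d were opposite in sign to Xist on arrays 1, 3 and 4. Uty had ratios of 2.13, 0.078, 2.30 and -1.64. The paired extracts of arrays 1, 3 and 4 were thus unlike in sex-linked markers. Liver marker genes also differed, with a ratio of their summed levels of 2.18, 1.01, -1.29 and 0.51 over the 6 genes with a value on every array. Summed blood and immune markers gave 0.45, 0.30, -0.42 and 1.27 over 6 genes. Of these 6 genes 5, 3, 2 and 4 were higher in KO on arrays 1 to 4, and their median on array 2 was -0.066. The blood gene Hba-a1 had ratios of 0.43, 0.39, -0.44 and 1.34, near the sum. The immune gene Ptprc had -0.036, -0.18, -0.11 and -0.17, so the sum does not stand for each gene. The part of the embryos' sex, or of liver and blood RNA in the extracts, in the hormone ratios was not tested.

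**Figure D4:**
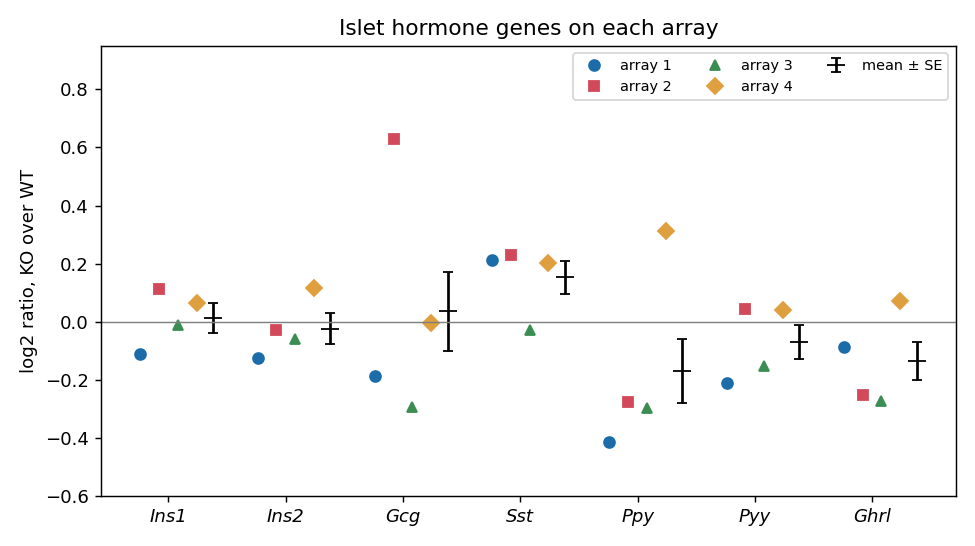
The log2 ratio of KO over WT (y axis) of the 7 hormone genes (x axis) on each of the 4 arrays (symbols), with the mean ± SE from limma. On array 3 all 7 genes lie below 0 and on array 4 all but Gcg lie above it.

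Among the 14922 genes with values on all 4 arrays, a few followed the pattern of the most variable hormones, measured as the root mean square difference of log2 ratios over the 4 arrays. The nearest to Gcg were Rufy3 (0.062), Ccl17 (0.087) and Klf15 (0.087), and Rufy3 had ratios of -0.14, 0.53, -0.33 and -0.040. The nearest to Ppy were Lat2 (0.052), Csf2rb (0.057) and Klk1 (0.062), and Lat2 had ratios of -0.34, -0.25, -0.23 and 0.30. With 4 arrays and this many genes, such likeness is a description of these extracts.

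Promoters of 3 hormone genes are shown because Gcg and Ppy varied most between arrays and Sst had the smallest p-value. The sequences are the 250 bases before the transcript start in RefSeq (GRCm38.p6), where 7 of the 8 genes were found and Ins2 was not. Capitals mark matches to the TATA core TATAAA on either strand in Gcg and Ppy, and to the cAMP response element TGACGTCA in Sst.
Gcg promoter, chr2:62483654-62483903, minus strand: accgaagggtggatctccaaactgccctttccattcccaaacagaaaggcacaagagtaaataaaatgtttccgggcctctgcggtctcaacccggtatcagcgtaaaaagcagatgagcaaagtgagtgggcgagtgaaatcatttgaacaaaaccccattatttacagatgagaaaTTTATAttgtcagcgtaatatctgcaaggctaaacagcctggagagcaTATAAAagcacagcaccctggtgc
Sst promoter, chr16:23890845-23891094, minus strand: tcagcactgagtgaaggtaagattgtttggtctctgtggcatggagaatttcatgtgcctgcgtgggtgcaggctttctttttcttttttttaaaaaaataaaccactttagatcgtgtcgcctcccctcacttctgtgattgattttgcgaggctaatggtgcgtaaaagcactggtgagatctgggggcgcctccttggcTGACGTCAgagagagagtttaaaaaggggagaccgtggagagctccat
Ppy promoter, chr11:102101320-102101569, minus strand: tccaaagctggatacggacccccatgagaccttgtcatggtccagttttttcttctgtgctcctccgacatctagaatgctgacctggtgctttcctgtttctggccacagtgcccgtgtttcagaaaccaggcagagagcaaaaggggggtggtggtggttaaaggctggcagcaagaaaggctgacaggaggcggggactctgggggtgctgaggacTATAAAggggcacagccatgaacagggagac

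The window searched was 250 bases before to 50 after each start, on both strands. The TATA core lay 24 bases before the start in Gcg, with a further match on the reverse strand 72 bases before it, and 31 bases before the start in Ppy, and 13.6% of 32851 promoters held it. The somatostatin promoter held the cAMP response element 48 bases before the start, a match found in 1.79% of promoters. A glucocorticoid response palindrome, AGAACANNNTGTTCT, was in 0 of the hormone promoters and in 0.00913% of all promoters. A single arm of it, AGAACA, which lies inside the palindrome, was in 1 of the 4 Ghrl promoters, 122 bases before the start on the reverse strand, and in 19.0% of all promoters. These matches are letters in a window and show no binding.

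Genes that process the hormones, switch them on or receive them came from lists chosen with earlier results of these data known. Of 13 tested genes for hormone processing and secretory granules, 0 were higher, 3 were lower and 10 did not pass, with a median ratio of -0.10 against 0.013 over all tested genes. The shares among all tested genes, 9.45% higher and 5.11% lower, are the background for this and the following lists, and nothing particular to a list is read from its count. Slc30a8, the zinc transporter of insulin granules, had ratios of -0.26, -0.10, -0.31 and -0.44 and fell by 0.28 ± 0.061 on the log2 scale (SE, n = 4 arrays, adjusted p = 0.0247). Chga and Chgb encode chromogranins, structural proteins of the granule. Chga had ratios of -0.40, -0.11, -0.31 and -0.15 and fell by 0.24 ± 0.060 on the log2 scale (SE, n = 4 arrays, adjusted p = 0.036). Chgb had ratios of -0.39, -0.31, -0.54 and -0.0050 and fell by 0.31 ± 0.082 on the log2 scale (SE, n = 4 arrays, adjusted p = 0.0435). Each of these 3 calls was lost on leaving out 3 of the 4 arrays in turn, with an adjusted p of up to 0.0936 for Slc30a8, 0.123 for Chga and 0.137 for Chgb. With median centring none of the 3 was lower past the threshold, with ratios of -0.072, 0.23 and 0.045 for Slc30a8, Chga and Chgb. Chga was then higher (adjusted p = 0.00589). With the tested-gene median at 0, where 31.0% of all tested genes were lower, their ratios were -0.32, -0.016 and -0.20. Slc30a8 then passed as lower (adjusted p = 0.00507), and Chga (0.830) and Chgb (0.0596) did not pass.

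Of 14 transcription factors of endocrine cells, 1 was higher in KO and 0 were lower, with a median ratio of 0.055. The 1 was Neurog3, the factor that starts the endocrine lineage, with ratios of 0.091, 0.47, 0.30 and 0.46 and a mean of 0.33 ± 0.069 (SE, n = 4 arrays, adjusted p = 0.0213), lost on leaving out array 2, 3 or 4 (adjusted p of up to 0.0797). Of 11 tested receptor genes for these hormones, 0 were higher and 1 was lower, with a median ratio of -0.048. It was Ramp3, which lets the calcitonin receptor bind amylin, with ratios of -0.16, -0.29, -0.13 and -0.24 and a mean of -0.21 ± 0.048 (SE, n = 4 arrays, adjusted p = 0.0296). The call was lost on leaving out any 1 array (adjusted p of 0.0644 to 0.115), and the ratio was 0.28 with median centring. Probes of the receptor genes Npy1r and Npy2r were well above background on 0 arrays in KO and on 0 in WT.

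Of 15 tested relatives of the hormones and other gut peptides, 1 was higher in KO and 1 was lower, with a median ratio of -0.024. Gast encodes gastrin, which the pancreas also makes before birth, and had ratios of -0.43, -0.52, -0.26 and -0.35. It fell by 0.39 ± 0.054 on the log2 scale (SE, n = 4 arrays, adjusted p = 0.00549) and passed on leaving out each array in turn. The Gast ratio was 0.079 (adjusted p = 0.286) with median centring, where the median of all tested genes was 0.26. With the tested-gene median at 0 it was -0.17 and passed as lower (adjusted p = 0.0389), as 31.0% of all tested genes did. Igf1, a growth factor related to insulin, had ratios of 0.071, 0.26, 0.28 and 0.34 and rose by 0.24 ± 0.056 (SE, n = 4 arrays, adjusted p = 0.0298), a call lost on leaving out array 2, 3 or 4 (adjusted p of up to 0.118).

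**Figure D5:**
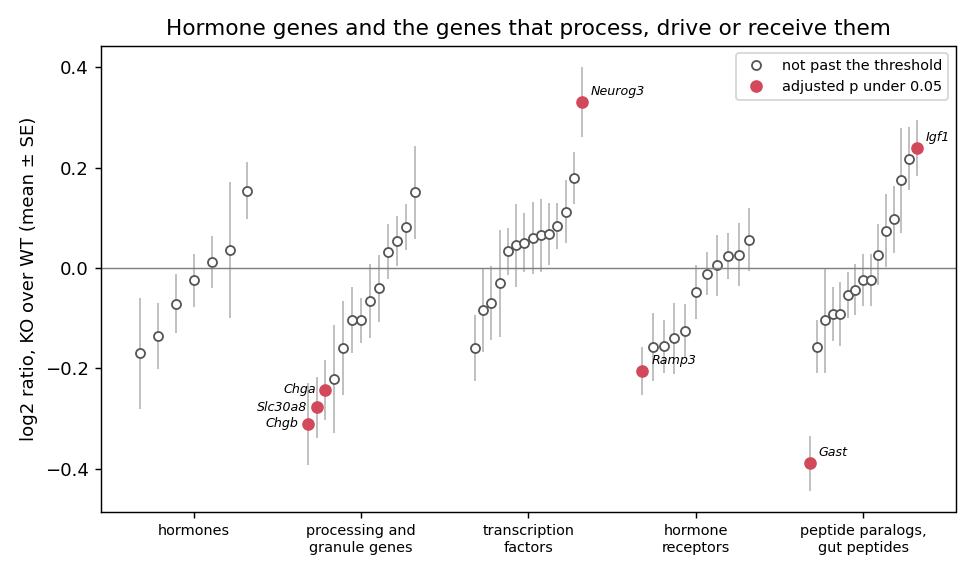
The log2 ratio of KO over WT (y axis, mean ± SE from limma, n = 4 arrays) of the 7 hormone genes and of the tested genes of 4 lists (x axis), with genes past the threshold filled and named. None of the hormone genes is filled, and Gast at -0.39 is the lowest point drawn.

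Pancreas markers were present, and markers of other tissues were measured because several of these hormones are made outside the islet. Of 8 acinar genes 2 were higher (Cel 0.66 and Cpa1 0.62) and 2 lower (Cela1 -0.69 and Pnlip -0.20), with summed levels of 18.84 to 19.33 in KO and 18.77 to 18.92 in WT. The call of Pnlip was lost on leaving out any 1 array (adjusted p of 0.0522 to 0.0889). With median centring neither of the 2 was lower past the threshold (Cela1 -0.080, adjusted p = 0.483, and Pnlip 0.069, adjusted p = 0.258). With the tested-gene median at 0 both passed as lower (Cela1 -0.33, adjusted p = 0.0302, and Pnlip -0.18, adjusted p = 0.0128). Of 8 tested stomach genes and 6 tested intestine genes none passed, with summed levels of 12.40 to 12.66 in KO and 12.46 to 12.68 in WT for stomach, and 11.10 to 11.63 in KO and 11.20 to 11.61 in WT for the 5 intestine genes with a value on every array. The probes of Gkn2 and Cdx2, a stomach and an intestine gene, were well above background on 0 arrays. None of 7 duct, 7 liver, 6 blood and immune, 6 neural and 5 sex-linked genes passed. For the liver and sex-linked genes and some blood and immune genes this does not mean unchanged, since large ratios differed in sign between arrays. Hba-a1 had 0.43, 0.39, -0.44 and 1.34. Xist had -3.91, -0.28, -4.22 and 3.46, and the summed liver markers 2.18, 1.01, -1.29 and 0.51. In the other lists 1 of 7 mesenchyme genes was higher (Pdgfrb 0.33) and 1 of 5 endothelial genes lower (Tek -0.29). Leaving out 1 array lost the call of Pdgfrb without array 2 or 4 and that of Tek without array 3 or 4 (adjusted p of up to 0.0766 for Pdgfrb and 0.0889 for Tek). The liver markers summed to 11.43 to 14.06 in KO and 11.76 to 12.72 in WT. Median spot signals were 304 to 467 in the KO channel and 163 to 224 in the WT channel, and the share of spots well above background was 78.2% to 85.1% per channel. Cyp11a1 itself had ratios of -0.19, -0.40, 0.013 and -0.072 (mean -0.16 ± 0.070, SE, n = 4 arrays, adjusted p = 0.164), and whether its probe reads a part of the transcript that the knockout removes was not known here, so it does not check the labels.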

How the data were processed

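Hormone genes were measured on 4 two-colour Agilent arrays. The authors read the scans in Agilent Feature Extraction (version 10.5.1.1 in the submitters' processing notes). The deposited files give, per the file headers, each spot's median signal, local background and processed signal as intensity on a linear scale, the log10 ratio of red over green, and flags for non-uniform, saturated or well-above-background spots. The log10 ratio equalled that of the processed signals within 0.001 for 91.4% to 94.0% of spots. Symbols were assigned here by matching the design's accessions to RefSeq transcripts of GRCm38.p6, which named 25097 of 41174 probes (61.0%).

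Median intensity, per the labels red for KO and green for WT, was corrected with normexp (offset 50) and normalised by loess in limma 3.58.1 under R 4.3.3, with control and non-uniform spots at weight 0. Non-uniform spots were then left out and spots of a probe averaged. A probe was tested if well above background in 1 channel on at least 3 of 4 arrays, and the brightest tested probe stood for its gene. Ratios were fitted against 0 with lmFit and eBayes, two-sided, over 4 arrays, which keeps the 2 extracts of an array paired, and p-values were adjusted over 15524 genes at 0.05. Single-extract levels are log2 intensity after loess and Aquantile. The script was tested on simulated data with 100 genes changed by 0.5 and 100 by 1 on the log2 scale. Of these 80% and 98% passed in the right direction, with 7 false calls among 15524 genes. Changes smaller than 0.5 were not simulated. Array number limits the precision. The p-values set the mean ratio against the spread between these arrays, which eBayes moderates with that of all tested genes. The extract codes in the labels have no stated meaning, and whether extracts share an origin was not tested.

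The hormone genes and all lists were chosen with earlier results of these data known. The text names every hormone probe, of each related list every gene past the threshold (at most 4), Xist, and the 3 genes most like each of the 2 most variable hormones. Cyp11a1, Gkn2, Cdx2, Npy1r and Npy2r stand outside that rule and were chosen after their values were seen. The same holds for the markers Cel, Cpa1, Cela1, Pnlip, Pdgfrb, Tek, Hba-a1, Ptprc, Uty, Eif2s3y, Ddx3y and Kdm5d.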

Additional observations from a re-analysis of the deposited data

Results flagged for a closer look

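Of 43 sets of 4 values examined for a sample far from the others (ratios and levels of the hormone probes among them), 2 met Dixon's criterion, which chance meets in about 1 in 20 sets. For Ins1 the WT level on array 2 was 15.42, below the other WT extracts at 15.85 to 15.91. For Sst the log2 ratio on array 3 was -0.030, below the other arrays at 0.20 to 0.23. The part of a single extract in either value was not tested.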

How the results depend on the processing

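Under 12 other settings 0 of the 7 hormone genes passed, as in the main fit. Of everything tested, 0.689% (array pairing ignored) to 16.1% (another variance model) passed under them. Nothing particular to the hormones is therefore read from the count of 0. The settings were no background correction, processed signals, the deposited log ratio, scaling between arrays, other filters, other rules for probes and spots, no array pairing and another variance model. All of them kept loess except the deposited log ratio, which was used as given. The settings that kept loess do not check the choice of loess. The deposited log ratio of Ins1 was 0.011, near the 0.013 with loess and far from the 0.62 with median centring. How the dyes were balanced in that ratio was not examined, so it does not check the choice either. Across the 12 settings Sst had ratios of 0.15 to 0.18 (lowest adjusted p 0.101) and Ppy -0.20 to -0.12. Only Pyy changed sign, to 0.015 with non-uniform spots kept. Median centring gave 6 hormone genes higher and reversed Ins2 (0.57), Ppy (0.22), Pyy (0.35), Ghrl (0.31), Chga (0.23), Chgb (0.045), Gast (0.079), Ramp3 (0.28) and Pnlip (0.069). With the tested-gene median at 0, chosen after seeing the data, 4 were higher, and Ins2 (0.32), Pyy (0.10), Ghrl (0.059) and Ramp3 (0.034) reversed. Leaving out 1 array gave 0 or 1 hormone genes lower, the 1 being Ppy without array 4. The ranges were -0.020 to 0.054 for Ins1, -0.072 to 0.0090 for Ins2, -0.16 to 0.15 for Gcg and -0.33 to -0.088 for Ppy.

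Of all tested genes 2260 passed with loess, 11922 with median centring, 9065 with the tested-gene median at 0, 3501 of 32596 with every probe on its own, 967 to 1634 with 1 array left out, and 107 with no replicate block (each channel on its own, the array pairing ignored). Without that block 0 hormone genes passed, and the calls of Slc30a8, Chga, Chgb, Neurog3, Gast, Igf1 and Ramp3 were all lost (adjusted p of 0.175 to 0.767), as were those of Cela1 (0.0503), Pnlip (0.705), Tek (0.324) and Pdgfrb (0.191). The processed signals and the deposited log ratio lost the calls of Chgb and Ramp3, the deposited log ratio also that of Pnlip, and the other variance model that of Cela1. The cause of these shifts was not tested. Limits are the 4 arrays, the dyes fixed to genotype and the scaled-up readings of the brightest spots. Hormone signals were at least 17.5 times the local background on every array.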
